A study of Mus musculus with 12 samples.

Results

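The early effect of Tet2 deletion was read in 6 of the 12 arrays of the study: 3 of Tet2-/- and 3 of Tet2fl/fl mouse bone marrow cells at passage 2, compared within replicate numbers, with every array row that names a single gene. Of the 41345 rows of the table, 23521 named a single gene (22180 genes), and the 16860 genes whose mean level reached log2 4.70 were tested, while the other 5320 lay below that level. All groups were Kit-enriched marrow cells of Tet2fl/fl;CreER mice that had been transduced with MigR1 carrying AML1-ETO, the fusion protein of a common acute myeloid leukaemia, together with GFP, had been replated 3 times and grew with SCF, IL-3 and IL-6. Tet2-/- cells had received 4-hydroxytamoxifen (4-OHT) at 200 nM for 2 passages (4 days), which activates CreER, and Tet2fl/fl cells had received ethanol, so 4-OHT exposure, Cre activity and loss of Tet2 cannot be told apart. The cells assayed were sorted as GFP+, CD11b-, Gr1- and CD16/32+, at 2 passages after disruption here and at 10 in the later groups. Whether the 3 replicates are separate mice, transductions or cultures is not given, so p-values measure the spread between these samples, which may be technical.

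Tet2 encodes a dioxygenase that oxidises 5-methylcytosine in DNA, a step on the way to removing the mark, and it is among the genes most often mutated in myeloid malignancy. AML1-ETO joins the DNA-binding part of RUNX1 to a corepressor and holds progenitors in an immature, self-renewing state. In cytokines such as SCF and IL-3 such progenitors can also give rise to mast cells, basophils and eosinophils, lineages that depend on the receptor Kit (mast cells), on GATA factors and on the IL-5 receptor (eosinophils).

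The arrays were alike in scale. Array medians lay between log2 5.60 and 5.68 at passage 2, single values reached 13.6, and the Pearson correlation between 2 arrays of the same passage 2 group was 0.987 to 0.991 over all rows. The number of arrays limits the precision. Differences below are Tet2-/- minus Tet2fl/fl in log2 units, ± the standard error of the fit with n = 3 arrays per group, and the p-values are adjusted over all 16860 genes with a threshold of 0.05. The fit takes the replicate number as a block, that is, it compares the arrays of a number with each other. The adjusted p of the fit without that block is given for the genes that passed, of which it leaves only Tpbgl.

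Tet2 itself gave 9.94, 9.89 and 10.08 in the Tet2fl/fl arrays 1 to 3 and 9.97, 9.89 and 9.98 in the Tet2-/- arrays. The groups overlapped and the difference was -0.03 ± 0.07 (95% interval -0.19 to 0.14, adjusted p = 0.911, 0.952 without the block). This single value covers the whole gene and does not show whether the floxed part was lost. Of the 10 tested genes for the sorting gate and related surface proteins, 1 fell (Kit) and 0 rose, where 0.261% and 0.148% of all genes tested did. In limma's fit 1 of the 10 had an unadjusted p under 0.05, where 13.4% of all genes had. The 2 genes of the CD16/32 gate were measured well above the filter in both groups: Fcgr3 gave 10.91, 10.83 and 10.90 against 10.77, 10.57 and 11.01, and Fcgr2b gave 11.44, 11.46 and 11.61 against 11.47, 11.53 and 11.54. Itgam (CD11b) gave 8.13, 7.77 and 8.31 against 8.08, 8.13 and 8.35 and Ly6g, a part of Gr1, gave 4.77, 5.60 and 6.80 against 5.06, 6.32 and 6.04, with overlapping groups. Transcripts of the markers used to gate cells out were thus measured, and their groups overlapped between the genotypes.

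At passage 2, 69 of 16860 genes passed (0.409%), 44 lower and 25 higher in Tet2-/- cells. By the measured values 14 genes fell by more than 2-fold, 3 of them by 4-fold or more (Slc6a4, Aspa and Itga2), and 7 rose by more than 2-fold, 1 of them by 4-fold or more (Gm2022). The Tet2-/- values of Aspa lay below the filter level, so its fold is uncertain. In all 69 genes the 3 pairs moved in 1 direction, as they did in 36.7% of genes tested. The groups did not overlap in 66 of the 69 (15.3% of genes tested), that is, in 44 of 44 lower genes (8.17%) and 22 of 25 higher genes (7.12%), the exceptions being Cyp2ab1, Rasgrp3 and Zbp1. The same values chose these genes, so these counts only describe them. Only Tpbgl also passed without the block (0.00593% of genes tested). For the other 68 the adjusted p without it was 0.0555 to 0.534, and 68 of the 69 had an unadjusted p under 0.05 in that fit. The count depended on each passage 2 array: it was 13, 1 and 1 without Tet2fl/fl p2 replicate 1, 2 or 3. It was 0, 3 and 0 without Tet2-/- p2 replicate 1, 2 or 3. Passage 10 arrays add only to the estimate of the spread. The count was 75, 31 and 20 without Tet2-/- p10 replicate 1, 2 or 3, and 103, 52 and 96 without Tet2fl/fl p10 replicate 1, 2 or 3. A fit to the 6 passage 2 arrays alone, with the block, called 334 genes (1.98%), 61 of the 69 among them.

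Slc6a4, the serotonin transporter, gave 11.08, 10.61 and 10.79 in the Tet2fl/fl arrays and 7.96, 8.43 and 8.64 in the Tet2-/- arrays. All Tet2-/- arrays lay well below the lowest control, and the gene fell 5.6-fold (-2.48 ± 0.25, adjusted p = 0.0149, 0.0555 without the block). Itga2, the collagen-binding integrin alpha 2 subunit, gave 9.55, 9.69 and 9.86 against 7.36, 7.85 and 7.90, a difference of -2.00 ± 0.33 (adjusted p = 0.0427, 0.134 without the block). Here too every Tet2-/- array lay below every control. Tpbgl, related to the trophoblast glycoprotein gene, gave 7.66, 7.16 and 7.59 against 6.09, 6.26 and 6.23 (-1.28 ± 0.12, adjusted p = 0.0149, 0.00674 without the block). Its Tet2-/- values were close together, and most of the spread came from Tet2fl/fl replicate 2. Lhfp, a tetraspan membrane protein gene, gave a mean of 8.18 ± 0.16 (SD, n = 3) against 6.25 ± 0.22 (-1.92 ± 0.25, adjusted p = 0.0302, 0.0655 without the block), with the lowest value of each genotype in replicate 2.

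Among lower genes of enzymes and secreted products, Aspa, whose product cleaves N-acetylaspartate, gave 6.12, 6.35 and 7.06 in the controls. Its Tet2-/- values of 4.48, 4.38 and 4.48 lay in all 3 arrays below the level of 4.70 used as a filter, and the difference was -2.07 ± 0.27 (adjusted p = 0.0302, 0.0655 without the block). Pmch, the precursor of melanin-concentrating hormone, showed how the pairs mattered: it gave 8.35, 7.94 and 9.57 against 6.46, 6.18 and 7.63. Replicate 3 was highest in both genotypes, and each pair fell by a similar amount (-1.87 ± 0.31, adjusted p = 0.0422, 0.445 without the block). Muc6, a gel-forming mucin, fell by 1.71 (adjusted p = 0.0418, 0.119 without the block), and Car8, a carbonic anhydrase-related protein without the enzyme's activity, gave 10.07, 9.79 and 10.09 against 8.40, 7.97 and 8.66 (-1.64 ± 0.24, adjusted p = 0.0418, 0.137 without the block). The carboxypeptidase N gene Cpn1 (-1.46, 0.0302, 0.159 without the block), the protease inhibitor gene Spink2 (-1.38, 0.0302, 0.135), the proton pump gene Atp4a (-1.17, 0.0418, 0.134), the potassium channel subunit gene Kcne3 (-1.13, 0.0418, 0.137), the neuron navigator gene Nav1 (-1.04, 0.0418, 0.267) and the nuclear receptor gene Nr4a3 (-1.02, 0.0418, 0.178) completed the 14 largest falls, where each bracket gives the difference and its adjusted p with and without the block.

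**Figure D1:**
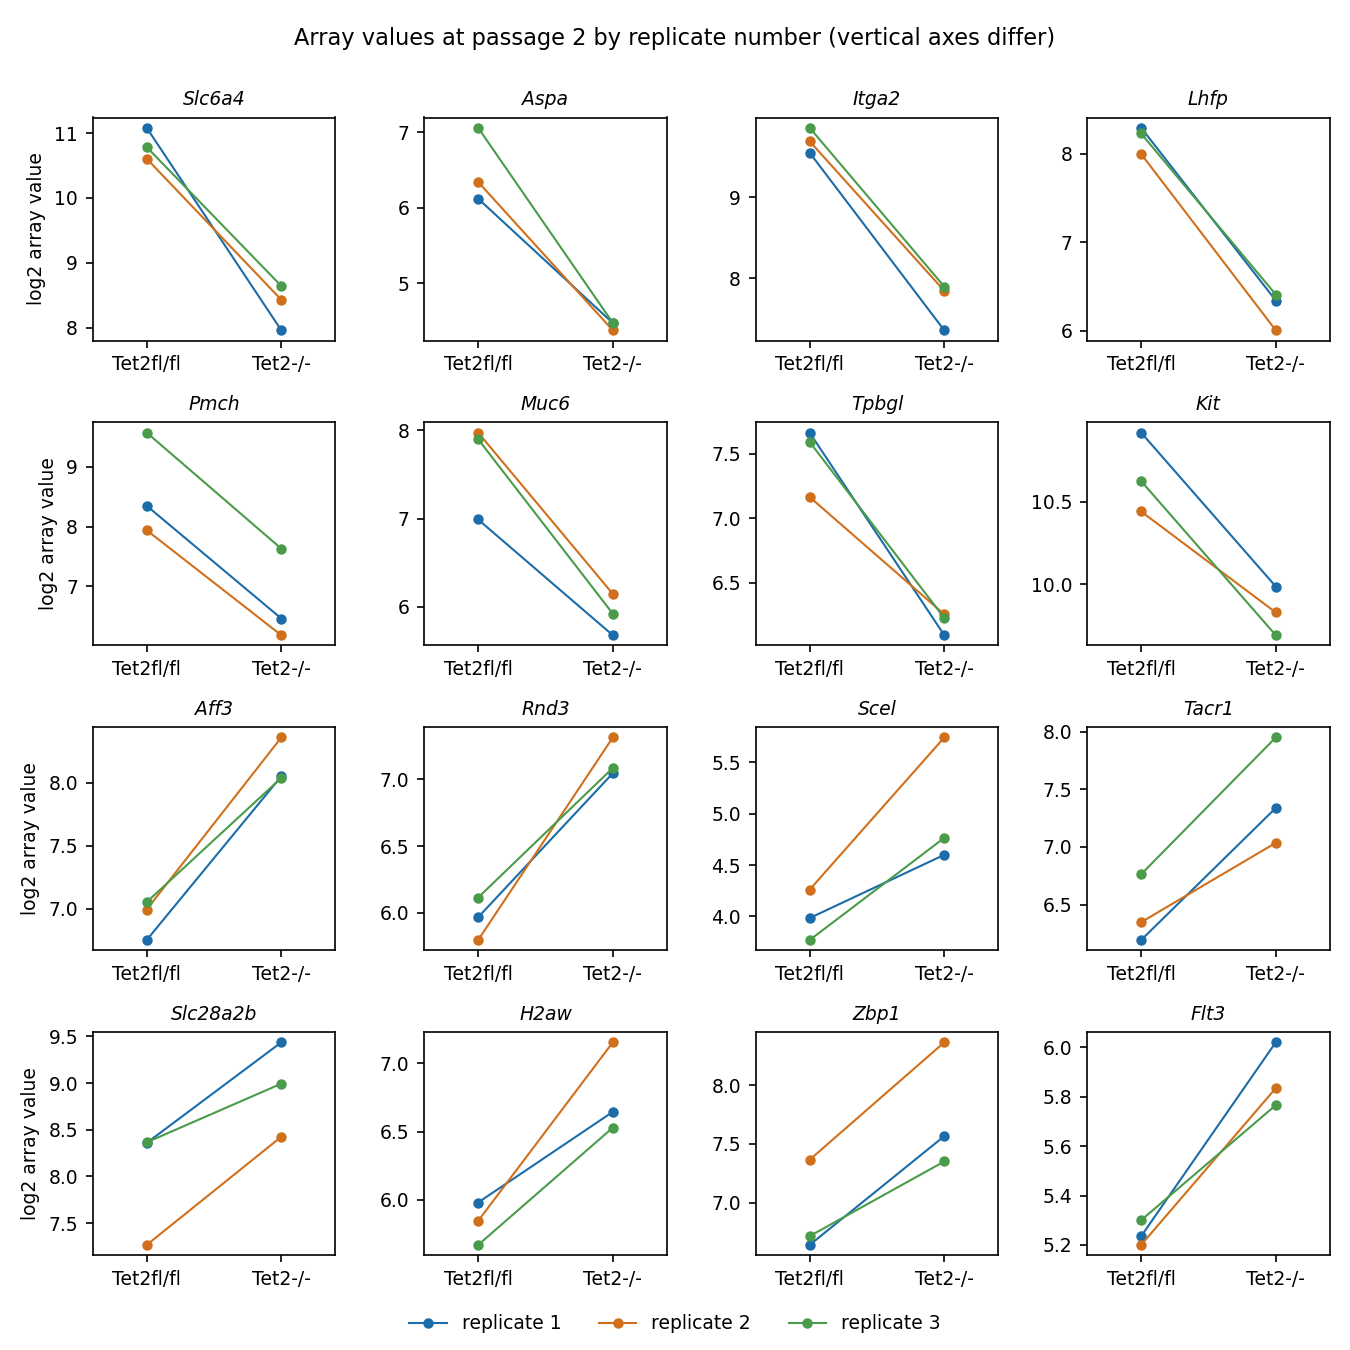
Log2 array values of 16 genes at passage 2, with a line joining the Tet2fl/fl and Tet2-/- arrays of a replicate number. All 3 lines fall in the upper 8 panels (Slc6a4 to Kit) and rise in the lower 8 (Aff3 to Flt3), and in Pmch, Slc28a2b and Zbp1 the replicate numbers stand apart in both genotypes.

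The higher genes were led, among named genes, by Aff3, a nuclear protein gene of the AF4 family that is a fusion partner of MLL in leukaemia. It gave 6.75, 6.99 and 7.05 in the controls and 8.05, 8.36 and 8.04 in Tet2-/- cells (1.22 ± 0.19, adjusted p = 0.0418, 0.134 without the block). The groups lay well apart. Aff1, Aff2 and Aff4, its relatives, differed by -0.08, -0.03 and -0.05 and did not pass. Rnd3, whose product restrains actin contractility, gave 5.97, 5.80 and 6.11 against 7.05, 7.32 and 7.09 (1.19 ± 0.17, adjusted p = 0.0362, 0.121 without the block). Replicate 2 had the lowest control and the highest Tet2-/- value, so this pair showed the steepest rise. Tacr1, the receptor for substance P, gave 6.19, 6.35 and 6.76 against 7.34, 7.04 and 7.95 (1.01 ± 0.14, adjusted p = 0.0302, 0.14 without the block), and its groups did not overlap. Scel (sciellin) gave 3.98, 4.26 and 3.77 against 4.60, 5.74 and 4.77 and rose (adjusted p = 0.0487, 0.432 without the block). Its controls lay below the filter level, so it passed the filter through the groups where it is high, and the size of its rise (1.03 as measured) is uncertain.

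In several higher genes the replicate numbers lay as far apart as the genotypes. Slc28a2b, a nucleoside transporter gene, gave 8.36, 7.27 and 8.36 against 9.44, 8.43 and 8.99. Replicate 2 lay below the others in both genotypes, and its Tet2-/- value was close to the controls of replicates 1 and 3, yet each pair rose (0.96 ± 0.13, adjusted p = 0.0302, 0.534 without the block). Its paralog Slc28a2 is close in sequence, so how much each contributes to this row is uncertain. Zbp1, a sensor of nucleic acids, gave 6.64, 7.36 and 6.72 against 7.57, 8.36 and 7.35. Its control in replicate 2 lay at the level of the Tet2-/- arrays of replicates 1 and 3, so the groups overlapped (0.85 ± 0.13, adjusted p = 0.0418, 0.441 without the block). Rasgrp3, an exchange factor that activates Ras, overlapped in the same way (0.83 ± 0.14, adjusted p = 0.0427, 0.486 without the block). Rgs11, a regulator of G protein signalling, rose in every pair by a similar amount (0.82 ± 0.09, adjusted p = 0.0201, 0.35 without the block).

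The receptor tyrosine kinase genes Kit and Flt3 moved in opposite directions. Kit, the receptor for SCF, gave 10.92, 10.44 and 10.63 against 9.98, 9.83 and 9.69 and fell 1.78-fold (-0.83 ± 0.13, adjusted p = 0.0418, 0.201 without the block). Flt3, a receptor of early myeloid and lymphoid progenitors, gave 5.23, 5.20 and 5.30 against 6.02, 5.83 and 5.77 and rose 1.55-fold (0.63 ± 0.09, adjusted p = 0.0418, 0.135 without the block). Neither gene's groups overlapped, and Flt3 was low in both genotypes, not far above the filter level. In the list of growth factor and cytokine receptors these were the only members of the 20 tested to pass, with a list median of -0.10 where all genes tested had a median of -0.003. Thus 1 fell and 1 rose, where 0.261% and 0.148% of all genes tested did. At an unadjusted p under 0.05 there were 5 lower and 3 higher members, where 7.53% and 5.84% of all genes were. The nearest others were the TGF-beta receptor gene Tgfbr2 (-0.63 ± 0.12, adjusted p = 0.0688) and the IL-5 receptor gene Il5ra (-1.47 ± 0.33, adjusted p = 0.101), whose Tet2-/- arrays (5.82, 5.60 and 6.17) all lay below the controls (6.78, 7.63 and 7.58). Il3ra, Csf1r and Csf2rb, for IL-3, M-CSF and GM-CSF signals, differed by -0.10, 0.11 and -0.11 and did not pass.

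Genes of mast cells and basophils were lower in part, and the part was uneven. Of 30 tested members of 33, 3 fell (Slc6a4, Itga2 and Kit) and 0 rose, where 0.261% of all genes tested fell. At an unadjusted p under 0.05 there were 16 lower and 0 higher members, where 7.53% and 5.84% of all genes were lower and higher. The list median was -0.36. Like all gene lists here, this one was chosen with earlier results of these data known, so its counts are not independent evidence. Without the block 0 members passed. In bulk RNA, fewer cells of a type and less RNA per cell cannot be told apart. The mean over the members was 10.53 to 10.60 in the controls and 9.96 to 10.16 in Tet2-/- arrays, with pair differences of -0.55, -0.45 and -0.57.

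Members of that list ranged widely, from -2.48 to 0.45. Of the 30 tested, 24 had negative and 6 positive differences, where 50.8% of all genes tested had a negative one. Cpa3, mast cell carboxypeptidase, gave 13.33, 13.32 and 13.38 against 13.36, 13.35 and 13.33, and the basophil protease gene Mcpt8 gave 13.10, 13.05 and 13.01 against 13.07, 13.11 and 12.94. Both lay close to the highest values of these arrays (13.6), so little can be read from their small differences. Cd63 (0.02 ± 0.07), Srgn (0.03 ± 0.07), which encodes the proteoglycan core of granules, and the IgE receptor gamma chain gene Fcer1g (-0.12 ± 0.08) did not pass either. Other members had larger differences: the tryptase gene Tpsab1 gave 7.96, 7.80 and 7.31 against 6.76, 6.81 and 6.07 (-1.14 ± 0.23, adjusted p = 0.0752), and the mast cell protease genes Mcpt4 and Mcpt2 differed by -1.33 ± 0.59 (0.373) and -1.07 ± 0.45 (0.336). The prostaglandin D synthase gene Hpgds gave 8.40, 8.44 and 8.38 against 7.81, 7.31 and 7.49 (-0.87 ± 0.17, adjusted p = 0.0688) and the adaptor gene Grap2 gave 7.65, 7.30 and 7.51 against 6.16, 5.86 and 6.45 (-1.33 ± 0.31, adjusted p = 0.119). In these 5 genes all Tet2-/- arrays lay below all controls, although none passed. Such separation held in 15 of the 30 tested members and in 8.17% of all genes tested. The lineage factors Gata2 (-0.40 ± 0.10), Gata1 (-0.38 ± 0.11) and Mitf (-0.36 ± 0.10) had smaller differences with adjusted p of 0.124, 0.173 and 0.157. In the fit to the 6 passage 2 arrays alone with the block, 10 members passed as lower, where 1.34% of all genes did: Slc6a4, Itga2, Kit, Grap2, Tpsab1, Hpgds, Mcpt4, Mcpt2, Fcer1a and Il13.

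Eosinophil genes had the largest differences of any list, and 0 of 9 tested members passed, where 0.409% of all genes tested did. At an unadjusted p under 0.05, 6 were lower, where 7.53% of all genes were. This list too was chosen with earlier results known, so its counts are not independent evidence. Epx, eosinophil peroxidase, gave 10.67, 11.04 and 10.98 in the controls and 7.66, 7.82 and 8.33 in Tet2-/- cells, a difference of -2.96 ± 0.58 (adjusted p = 0.0736, 0.178 without the block) and the largest of all 16860 genes. The major basic protein genes Prg2 (11.47, 11.65 and 11.42 against 9.37, 10.04 and 9.75) and Prg3 (9.48, 9.89 and 9.81 against 7.39, 8.05 and 7.93) lay apart by -1.79 ± 0.56 and -1.93 ± 0.52. The lipoxygenase gene Alox15 (-1.48 ± 0.46), Il5ra and the eotaxin receptor gene Ccr3 (-0.70 ± 0.19) were also lower in every Tet2-/- array than in every control. Groups lay apart in this way in 6 of the 9 tested members and in 8.17% of all genes tested. Siglecf (0.07 ± 0.25), a surface lectin gene, and Cebpe (-0.17 ± 0.28), a transcription factor gene shared with neutrophils, showed no such separation. The list median was -1.47, and the mean over the list ran from 9.08 to 9.31 in controls and from 7.85 to 8.03 in Tet2-/- arrays, with pair differences of -1.23, -1.29 and -1.13. When only the 6 passage 2 arrays entered the fit with the block, 7 of the 9 passed as lower (1.34% of all genes did), among them Epx (adjusted p = 0.000534), Prg3 (0.000534), Prg2 (0.00168) and Alox15 (0.00287). The standard errors above include the passage 10 arrays.

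**Figure D2:**
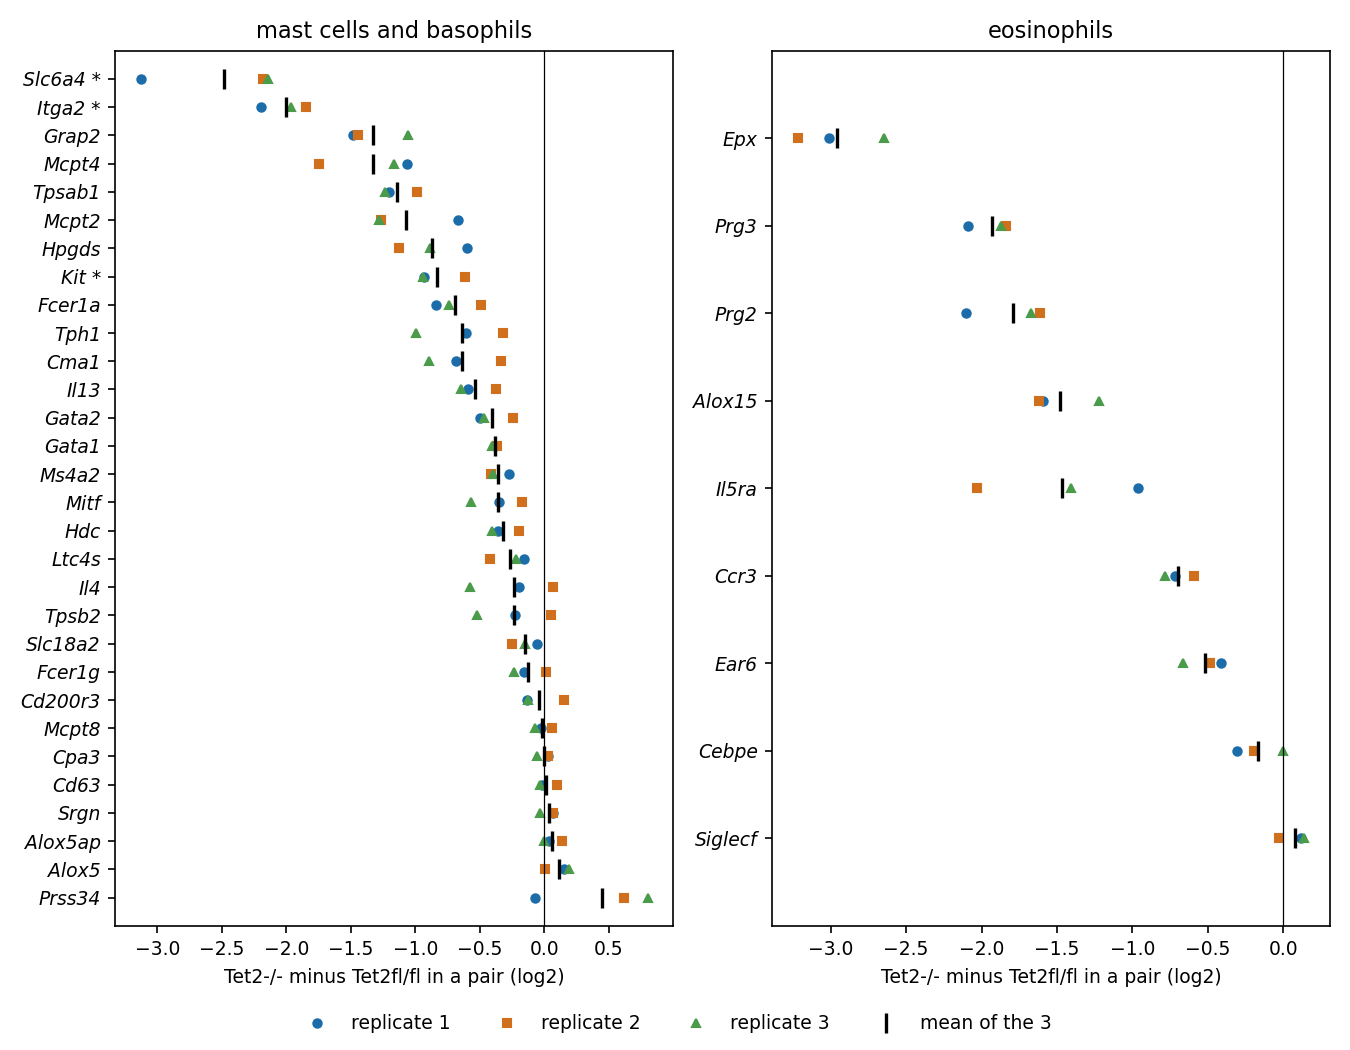
Difference between the Tet2-/- and Tet2fl/fl array of each replicate number at passage 2, in log2 units, for the tested mast cell and basophil genes and eosinophil genes, with a bar at the mean. Asterisks mark genes that passed with the replicate block; Epx has the largest mean difference (-2.96), while Cpa3, Mcpt8 and Cd63 lie near 0.

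Markers of the other cell types that the cultures could hold showed no member past the threshold. Among all genes tested 0.409% passed, so a count of 0 in lists of this size says little. The counts at an unadjusted p under 0.05 below stand against 13.4% of all genes tested, of which 49.2% had a positive difference. Of 18 monocyte and macrophage genes, 14 had positive differences with a median of 0.20, 0 passed and 5 had an unadjusted p under 0.05, with Clec4e (0.32 ± 0.10) and Cx3cr1 (-0.48 ± 0.16) nearest. In the dendritic cell and MHC class II list, 0 of 13 passed and 2 had an unadjusted p under 0.05, and H2-Ab1, the class II beta chain, gave 8.27, 7.44 and 6.30 against 8.40, 8.94 and 7.57 with overlapping groups (0.97 ± 0.35, adjusted p = 0.262). Zbtb46, a factor of dendritic cells, was next (0.20 ± 0.08, adjusted p = 0.325). Primary granule genes of neutrophil progenitors were near the controls: 0 of 8 passed, 1 had an unadjusted p under 0.05, and the median was -0.05. Ms4a3 (0.38 ± 0.15, adjusted p = 0.317) and the protease inhibitor gene Serpinb1a (-0.17 ± 0.10, adjusted p = 0.501) came nearest. Late granule genes of maturing neutrophils varied among arrays of a group, with list means of 7.83 to 8.96 in controls and 7.88 to 8.54 in Tet2-/- arrays. None of these 20 passed and 5 had an unadjusted p under 0.05, among them Mmp8 (1.14 ± 0.32) and Cd177 (-0.93 ± 0.26) in opposite directions. Megakaryocyte and platelet genes (0 of 15 passed, 4 at an unadjusted p under 0.05), erythroid genes (0 of 9, and 1) and lymphoid genes (0 of 12, and 0) had medians of -0.002, 0.01 and -0.03. Itga2b, the megakaryocyte integrin gene, differed by 0.29 ± 0.12 (adjusted p = 0.31), where Itga2 fell. The transcription factor gene Nfe2 (0.48 ± 0.11, adjusted p = 0.121) came nearest in the megakaryocyte list, Gata1 and Klf1 (-0.33 ± 0.16, adjusted p = 0.411) in the erythroid list, and Ebf1 (0.18 ± 0.09, adjusted p = 0.431) and Cd3e (-0.19 ± 0.13, adjusted p = 0.578) in the lymphoid list. Of the 22 lymphoid genes listed, 10 were not tested, 7 of them because they lay below the filter.

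Signalling genes downstream of the receptors included the pathway's brakes. None of 31 genes of JAK-STAT and Ras-MAPK signalling passed, where 0.409% of all genes tested did. An unadjusted p under 0.05 was found for 10, 6 lower and 4 higher, where 7.53% and 5.84% of all genes were. Those nearest were Dusp4 (-0.88 ± 0.16, adjusted p = 0.0593) and Socs2 (-0.52 ± 0.10, 0.0729), which encode a MAP kinase phosphatase and an inhibitor of cytokine signalling. Socs2 gave 10.93, 10.98 and 10.90 against 10.47, 10.37 and 10.42, and Dusp6, a phosphatase of ERK, gave 10.99, 11.01 and 10.78 against 10.22, 10.47 and 10.12, so the groups lay apart in both. The kinase gene Pim2, a STAT5 target, lay on the other side with a mean of 7.81 ± 0.26 (SD, n = 3) against 8.39 ± 0.32 (0.58 ± 0.15, 0.133). Of 20 growth restraint candidates 1 fell and 0 rose, where 0.261% and 0.148% of all genes tested did. At an unadjusted p under 0.05 there were 5 lower and 0 higher members, where 7.53% and 5.84% of all genes were. The gene that fell was Mtss1, which encodes a protein of membrane and actin organisation (-0.71 ± 0.12, adjusted p = 0.0422, 0.134 without the block). Its values were 9.24, 8.73 and 9.06 against 8.25, 8.19 and 8.46. Some genes of this list may have been picked by the study from these samples, so its counts are not independent evidence. Lxn, also in it, gave -0.89 ± 0.20 (adjusted p = 0.101).

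Among the listed transcription factor genes Aff3, Nr4a1 and Nr4a3 passed. Of 23 stem and progenitor regulators 1 rose (Aff3) and 0 fell, where 0.148% and 0.261% of all genes tested did. The list was chosen with earlier results of these data known, so this count is not independent evidence. The self-renewal factors Meis1 (-0.59 ± 0.35), Mecom (-0.05 ± 0.11) and Erg (-0.25 ± 0.12) did not pass. Of 16 myeloid factors 0 passed, where 0.409% of all genes tested did. An unadjusted p under 0.05 was found for 7 (13.4% of all genes had it). Among them were Gfi1 (-0.30 ± 0.09), Irf8 (0.55 ± 0.17) and Cebpa (0.65 ± 0.20), which direct granulocyte and monocyte development. The Irf8 values were 6.15, 6.36 and 5.91 against 6.72, 6.65 and 6.71. Nr4a1 and Nr4a3, orphan nuclear receptors that cells induce soon after stimulation, both fell: Nr4a1 gave 6.59, 7.09 and 6.91 against 6.14, 6.28 and 6.24 (-0.64 ± 0.08, adjusted p = 0.0302, 0.136 without the block) and Nr4a3 gave 5.55, 6.19 and 6.32 against 4.91, 4.88 and 5.23. They were the only members of 23 immediate early and heat shock genes to pass (0.261% of all genes fell), and Fos, Jun and Egr1 differed by 0.13, -0.27 and -0.11. Hspa8 and Dnajb1, heat shock chaperone genes, differed by -0.02 and -0.06.

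In the DNA methylation machinery 0 of 26 tested genes passed, where 0.409% of all genes tested did. An unadjusted p under 0.05 was found for 5, all lower, where 7.53% of all genes were, and the median was -0.0045. Tet1 and Tet3, the other dioxygenases of the family, differed by 0.34 ± 0.18 and -0.24 ± 0.07, and the methyltransferase genes Dnmt1, Dnmt3a and Dnmt3b by 0.00 ± 0.09, -0.25 ± 0.08 and 0.01 ± 0.14. Dnmt3a gave a mean of 8.01 ± 0.06 (SD, n = 3) against 7.76 ± 0.10. Gadd45g (-0.36 ± 0.09, adjusted p = 0.126) and Zbtb38 (-0.32 ± 0.09, 0.183) came nearest.

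In the glycolysis, cell cycle, p53 and cholesterol lists 0 genes passed, where 0.409% of all genes tested did. Of 26 glycolysis and hypoxia genes 24 had positive differences with a median of 0.22, against 49.2% positive among all genes. At an unadjusted p under 0.05 there were 7, all higher, where 5.84% of all genes were. Bnip3, a mitophagy gene induced in hypoxia, gave 10.35, 9.55 and 9.10 against 10.70, 10.56 and 10.14 (adjusted p = 0.172). Pdk1 gave a mean of 8.24 ± 0.31 (SD, n = 3) against 8.89 ± 0.18 (adjusted p = 0.189). Control replicate 1 was the highest control in both genes, and for Bnip3 it lay within the Tet2-/- range. Cell cycle genes (0 of 42 passed, 2 at an unadjusted p under 0.05), p53 pathway genes (0 of 19, and 3) and genes of cholesterol synthesis (0 of 18, and 2) had medians of 0.0019, -0.08 and -0.0047. Among all genes tested 13.4% had an unadjusted p under 0.05. Mki67 and Cdk1, which mark dividing cells, differed by 0.12 and -0.02, and the p53 targets Cdkn1a and Mdm2 by -0.13 and -0.12. The members with the smallest p were the replication helicase gene Mcm3 (0.26 ± 0.10, adjusted p = 0.313) and Top2a (0.22 ± 0.09, adjusted p = 0.349) for the cell cycle. In the p53 list they were Plk2 (-0.57 ± 0.15, adjusted p = 0.144) and Sesn2 (-0.18 ± 0.08, adjusted p = 0.366), and in the cholesterol list Nsdhl (-0.23 ± 0.08, adjusted p = 0.238) and Hsd17b7 (-0.23 ± 0.10, adjusted p = 0.363). Of 27 type I interferon genes 1 rose (Zbp1) and 0 fell, where 0.148% and 0.261% of all genes tested did. The list median was -0.01. At an unadjusted p under 0.05 there were 3 higher and 2 lower members, where 5.84% and 7.53% of all genes were. Slfn5 lay on the lower side (-0.97 ± 0.18, adjusted p = 0.0596). Of 22 integrin subunits 1 fell (Itga2) and 0 rose, where 0.261% and 0.148% of all genes tested did. At an unadjusted p under 0.05, 4 were lower and 3 higher. The nearest other subunit was Itgb7 (0.53 ± 0.11, adjusted p = 0.0816), and Itgb1, the partner of Itga2, differed by 0.06. Xist, the only tested member of 6 sex-linked genes, gave 12.05, 11.74 and 12.11 against 12.42, 12.25 and 12.11 (adjusted p = 0.268).

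**Figure D3:**
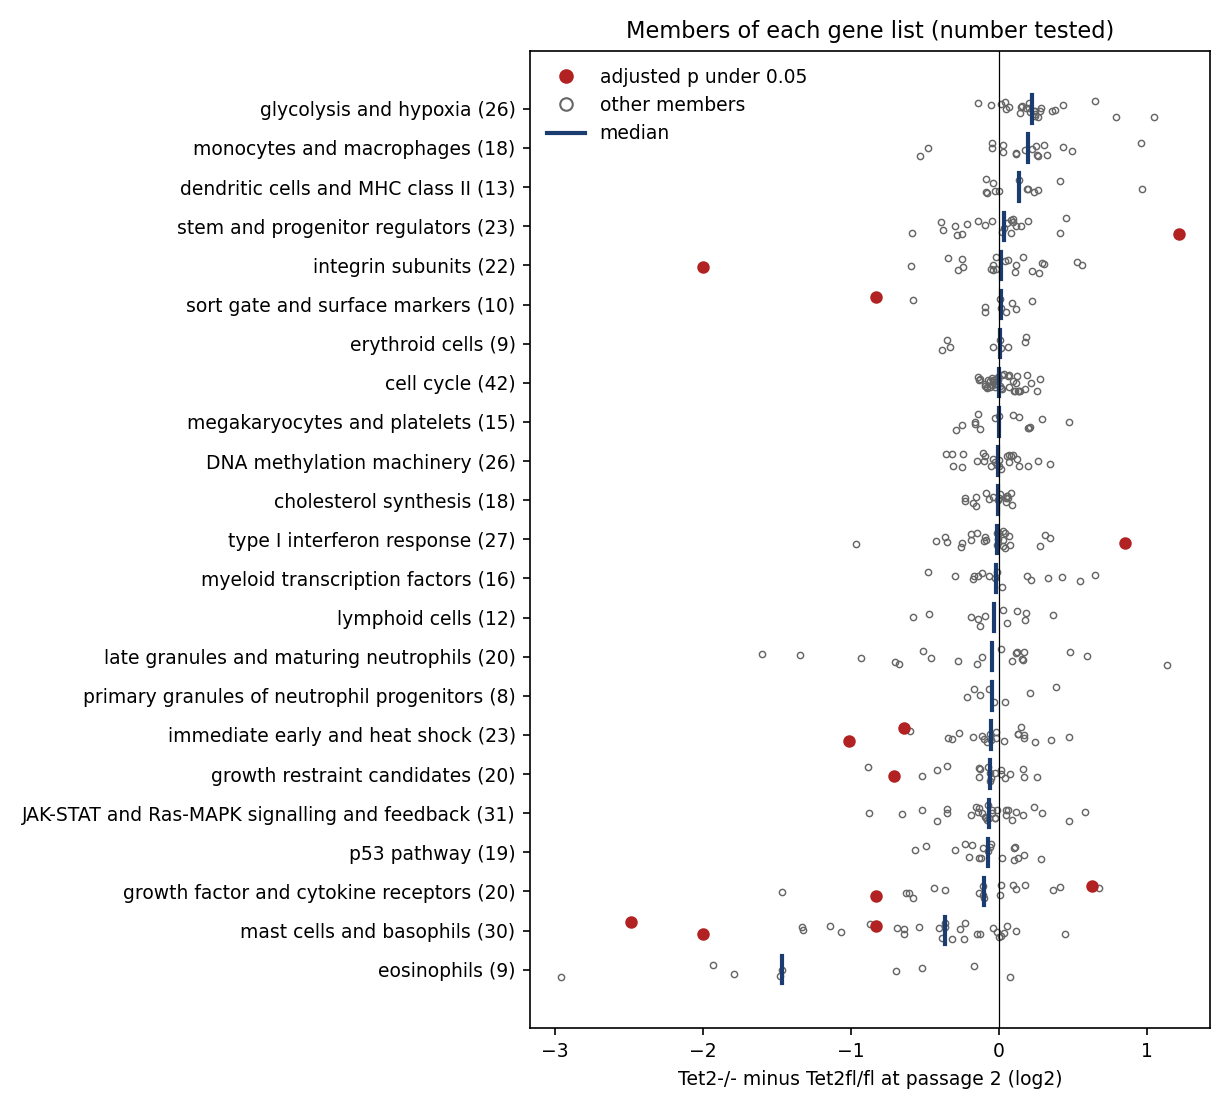
Differences of the tested members of each gene list with 5 or more at passage 2, in log2 units, with filled points for genes that passed with the replicate block and a bar at the list median; the number tested stands beside each name. The eosinophil list has the lowest median (-1.47) without a filled point, and the mast cell and basophil list holds 3.

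In all, 9 of the 69 genes belonged to a list and 60 to none. Genes of membrane transport were among them: the creatine transporter gene Slc6a8 (-0.83, adjusted p = 0.0418), the organic anion transporter gene Slco2b1 (-0.98, 0.0418), the folate transporter gene Slc46a1 (-0.57, 0.0487) and Slc41a3 (-0.44, 0.0487) fell, and the anion exchanger gene Slc26a3 rose (0.64, 0.0487). With Slc6a4 and Slc28a2b these made 7 of 307 solute carrier genes tested, 5 lower and 2 higher, where 0.261% and 0.148% of all genes tested were lower and higher. This family was put together after the calls were seen, so its count only describes them. Receptor genes included C5ar1, for the complement fragment C5a, with 6.17, 6.49 and 6.55 against 5.45, 5.64 and 5.42 (-0.90 ± 0.15, adjusted p = 0.0422). The adhesion receptor gene Adgrg6 (-0.81, 0.0302) and the G protein gene Gna14 (-0.67, 0.0427) fell with it. Enzymes of small molecules among the lower genes were Got1, aspartate transaminase (-0.60, 0.0418), the carbonyl reductase gene Cbr1 (-0.85, 0.0418), the AMP deaminase gene Ampd3 (-0.79, 0.0427) and Gnpda1, of glucosamine metabolism (-0.57, 0.0418). Without the block the adjusted p of these genes was above 0.1, apart from Slc6a4 and its 0.0555.

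Smaller rises were measured in Notch3, a Notch receptor, with 7.32, 7.34 and 7.25 against 7.83, 7.95 and 7.80 (0.55 ± 0.07, adjusted p = 0.0302, 0.0555 without the block). Its values were close together in each genotype, and Notch1, Notch2 and Notch4 differed by -0.05, -0.34 and 0.03 without passing. The sorting receptor gene Sorl1 (0.51 ± 0.08, adjusted p = 0.0418, 0.286 without the block) and the AMPA receptor subunit gene Gria3 (0.65 ± 0.10, adjusted p = 0.0418, 0.135 without the block) rose too. The kinase gene Dyrk3 (0.73, 0.0422, 0.225 without the block), the RNA-binding protein gene Rbm47 (0.72, 0.0418, 0.153), the annexin gene Anxa9 (0.68, 0.0494, 0.178), the glutathione transferase gene Gsta4 (0.65, 0.0455, 0.158) and the histone H2A gene H2aw (0.94, 0.0422, 0.121) were among the 14 largest named rises. Kcnq1ot1, an imprinted RNA antisense to Kcnq1, rose by 0.66 (0.0487, 0.225 without the block), where signal from the overlapping gene cannot be told apart here.

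The largest rises that passed belonged to predicted genes that the naming rule leaves out and that were picked after their values were seen. Gm2022 gave 8.27, 6.74 and 8.09 against 9.85, 10.12 and 9.42 (2.09 ± 0.34, adjusted p = 0.0422, 0.134 without the block), Gm2046 gave 8.60, 7.35 and 8.24 against 9.96, 9.92 and 9.45 (1.72 ± 0.27, adjusted p = 0.0418, 0.134 without the block) and Gm2035 gave 5.27, 5.61 and 5.26 against 6.59, 6.99 and 6.52 (1.32 ± 0.22, adjusted p = 0.0422, 0.135 without the block). In Gm2022 and Gm2046, control replicate 2 was the lowest array while the Tet2-/- arrays were alike. These are near-identical copies in a cluster of Eif1a-like genes, so signal may be shared among them and the 3 rows are not 3 independent results. Their relative Gm2016 differed by 1.08 ± 0.26 (adjusted p = 0.123), and Eif1a, the translation initiation factor gene they resemble, by 0.03.

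Passage 10 arrays, which the passage 2 difference does not use, were set beside these values. Of the 44 lower genes, 25 were also lower at passage 10 with an adjusted p under 0.05 (0.7% of all genes were, and 1.31% passed in either direction), and of the 25 higher genes 13 were also higher (0.611% of all). The 2 passages enter 1 fit, with a common spread per gene and common replicate numbers, so these counts are not independent of the first. Without the block 9 and 6 passed, and the counts fell to 15 and 6 without Tet2fl/fl p10 replicate 2, 16 and 8 without replicate 3 of that group, 12 and 5 without Tet2-/- p10 replicate 2 and 11 and 5 without replicate 3 of that group. Leaving out a replicate number in all groups gave 0 and 0 for replicate 2, 8 and 4 for replicate 3 and 20 and 10 for replicate 1. The differences had the same sign at both passages in 43 of the 44 and 22 of the 25, as in 62.7% of all genes, and all 3 passage 10 pairs were negative in 37 of the 44 and positive in 21 of the 25, where all 3 pairs had the fitted direction in 37.7% of all genes. The median difference was -0.82 at passage 2 and -0.66 at passage 10 for the 44, and 0.73 and 0.61 for the 25. The passage 2 values chose the genes, so a smaller median at passage 10 cannot show whether the differences changed between the passages. In fits to the 6 passage 10 arrays alone with the block, which called 0.089% of all genes, 8 of the 69 passed. Slc6a4 (-2.48 and -2.98), Itga2 (-2.00 and -2.47), Lhfp (-1.92 and -1.94), Car8 (-1.64 and -1.78) and Kit (-0.83 and -0.82) had like differences at passage 2 and passage 10. For Aff3 (1.22 and 1.08) and Rnd3 (1.19 and 1.36) this held on the higher side.

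Other genes were called at passage 2 alone. Flt3 differed by 0.63 at passage 2 and -0.10 at passage 10, Tacr1 by 1.01 and -0.08, Gria3 by 0.65 and 0.04, and the ciliary transport gene Ift57 by 0.57 and 0.03 (adjusted p at passage 2 0.0418, 0.243 without the block). On the lower side Pmch (-1.87 and -0.37), Aspa (-2.07 and -0.53), Atp4a (-1.17 and -0.28) and Creb3l1 (-0.82 and -0.27) had smaller differences at passage 10 with an adjusted p of 0.383 to 0.673 there. The eosinophil list, with 0 members called at either passage, had a smaller median difference there (-0.31). Epx was at -1.49 (adjusted p = 0.267), with pair differences of -0.85, -1.42 and -2.19. In limma's test of the change between passages Epx had an adjusted p of 0.961, so a change was not shown for it. A test of the change between passages called 0 of the 69 genes (0.00593% of all genes tested), with adjusted p of 0.178 or more, so a difference between the passages was not shown for any of them. Olfr446, an olfactory receptor gene near the filter level, was the 1 gene called in opposite directions (-0.45 and 0.38, adjusted p = 0.0487 and 0.0497). Without the block its adjusted p was 0.167 at passage 2.

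**Figure D4:**
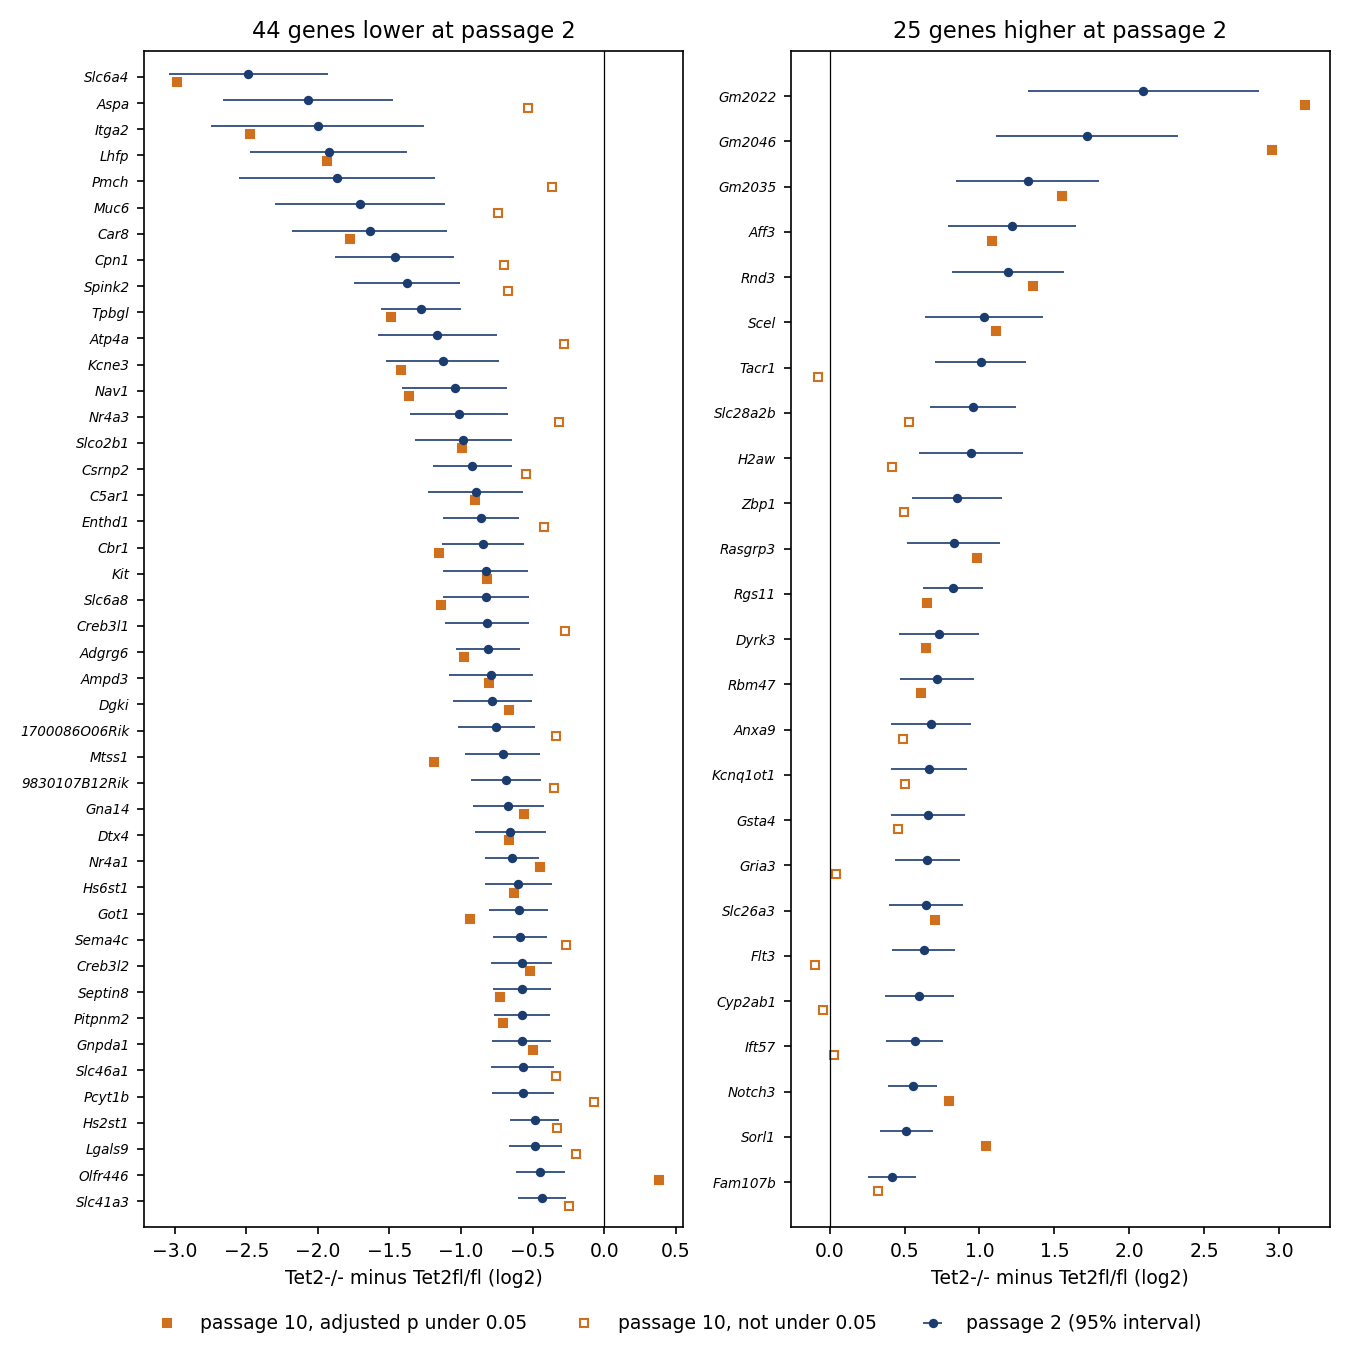
Differences (log2) of the 44 lower and 25 higher genes at passage 2, with 95% intervals, and of the same genes at passage 10 as squares, filled where the adjusted p is under 0.05. Slc6a4, Lhfp and Car8 lie alike at both passages, while Aspa, Pmch, Flt3 and Tacr1 lie near 0 or nearer to it at passage 10.

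Since Tet2 acts on cytosine in CG dinucleotides, promoter sequence was described for the genes that passed, as windows of 250 bases before to 50 after an annotated start in RefSeq (GRCm38.p6). A window was listed for 37 of the 44 lower genes, 19 of the 25 higher genes and 13082 of the 16860 genes tested, and the first listed start was used where a gene had several. The median number of CG dinucleotides in 300 bases was 13 in lower genes, 14 in higher genes and 18 in all genes. Windows with fewer than 6 made up 29.7% of the lower (11 of 37), 21.1% of the higher (4 of 19) and 19.5% of all. The RUNX core letters TGTGGT, on either strand, were found in 16.2% of lower, 15.8% of higher and 13.6% of all windows, and the GATA letters AGATAA in 10.8%, 0% and 7.76%. These shares describe letters in a window, not binding. Shown are, of the 14 largest named differences in each direction, the 2 genes with the smallest p among those with a listed window, with capitals marking each CG.
Slc6a4 (GRCm38.p6, chr11:76998347-76998646, + strand): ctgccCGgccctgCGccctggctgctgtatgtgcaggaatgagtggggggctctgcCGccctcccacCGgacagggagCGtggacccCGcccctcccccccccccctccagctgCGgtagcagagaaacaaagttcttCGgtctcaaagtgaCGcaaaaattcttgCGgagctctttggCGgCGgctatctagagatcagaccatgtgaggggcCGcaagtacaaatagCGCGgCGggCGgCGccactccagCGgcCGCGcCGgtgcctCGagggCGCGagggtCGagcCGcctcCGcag
Tpbgl (GRCm38.p6, chr7:99627054-99627353, - strand): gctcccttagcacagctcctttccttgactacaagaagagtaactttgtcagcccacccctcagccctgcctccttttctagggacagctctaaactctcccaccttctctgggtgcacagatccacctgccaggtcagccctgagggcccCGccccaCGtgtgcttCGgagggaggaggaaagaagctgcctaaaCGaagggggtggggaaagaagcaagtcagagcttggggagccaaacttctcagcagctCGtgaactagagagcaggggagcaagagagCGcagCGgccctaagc
Slc28a2b (GRCm38.p6, chr2:122484691-122484990, + strand): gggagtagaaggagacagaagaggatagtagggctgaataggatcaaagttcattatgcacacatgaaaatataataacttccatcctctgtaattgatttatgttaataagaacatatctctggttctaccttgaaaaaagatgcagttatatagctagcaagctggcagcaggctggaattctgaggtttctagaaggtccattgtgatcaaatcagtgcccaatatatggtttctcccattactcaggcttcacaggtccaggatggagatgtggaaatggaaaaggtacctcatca
Tacr1 (GRCm38.p6, chr6:82402225-82402524, + strand): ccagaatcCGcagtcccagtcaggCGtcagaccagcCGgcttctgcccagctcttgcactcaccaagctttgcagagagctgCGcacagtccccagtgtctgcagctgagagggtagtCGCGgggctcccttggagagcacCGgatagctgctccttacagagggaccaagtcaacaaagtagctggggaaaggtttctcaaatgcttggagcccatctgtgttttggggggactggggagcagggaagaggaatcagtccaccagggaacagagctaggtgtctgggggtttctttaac
The window of Slc6a4 held 28 CG dinucleotides and those of Tpbgl and Tacr1 held 7 each, while that of Slc28a2b held 0. The genes that passed thus had starts both rich and poor in CG.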

How the data were processed

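RNA of 12 samples, 100 ng each, was hybridised to GeneChip Mouse Gene ST 2.0 arrays. The authors deposited log2 values from RMA in Affymetrix Power Tools, per the submitters' processing notes; the sources used here give no version. RMA corrects background, normalizes arrays to each other and summarises the probes of each row, so a change shared by most genes may not show. Values were used as deposited.

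Of 41345 rows, 23521 had 1 gene symbol in the probe annotation, 1814 several and 16010 none. Symbols were updated by gene ID through a RefSeq table of GRCm38.p6 (23328 matched). Rows at or above the 30th percentile of mean level (log2 4.70) were kept, with the highest row per gene: 16860 genes. Groups came from the sample titles. limma 3.58.1 (R 4.3.3) fitted 1 model to all 12 arrays with a mean for each group plus a term for the replicate number, called the block (residual degrees of freedom 6, prior 3.93), with two-sided moderated tests and Benjamini-Hochberg adjustment.

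The block follows the rule set for this comparison, which takes the numbers as pairs. Deviations from the group means correlated at 0.294 to 0.435 in the 3 same-numbered pairs of passage 2 arrays. In the 6 others they correlated at -0.363 to 0.0522, and all 18 same-numbered pairs of the 4 groups gave 0.201 or more. Deviations in a group of 3 sum to 0, so part of this contrast is built in. With the block as a random effect, the fit estimated a correlation of 0.123 between arrays of a number. The members, gene lists and tests were chosen with earlier results of these data known. Gene families named under the closing observations were added after values were seen. Named genes were Tet2, the 14 largest called differences in each direction with all 3 pairs in that direction (predicted and small RNA genes left out), genes called with and without the block, and from each list the called members or else the 2 with the smallest p; other genes named for their roles or for contrast were chosen after their values were seen. The steps were run on simulated data that held replicate effects estimated from these arrays. That run therefore cannot tell whether the block is the right choice. Alternatives changed the block, the arrays fitted, the normalization, the filter, the moderation, array weights, the rows per gene and the arrays left out.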

Additional observations from a re-analysis of the deposited data

Results flagged for a closer look

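Ifitm3, an interferon-induced membrane protein gene, was the only gene of 16860 (0.00593%) whose genotype difference itself differed between the passages. The difference was -0.19 at passage 2, with 9.65, 9.51 and 9.61 in Tet2fl/fl and 9.48, 9.12 and 9.62 in Tet2-/- arrays, and -1.54 at passage 10. The change between passages was -1.35 (limma with the replicate block, adjusted p = 0.0432), and at passage 10 all 3 Tet2-/- arrays (8.68, 8.22 and 8.78) lay below the controls (10.27, 9.72 and 10.31). It passed in 6 of 24 alternatives and kept its direction in all 24 (-1.48 to -1.24), with an adjusted p of 0.00406 to 0.999 over them. It missed the threshold without the block, and also when any array other than Tet2fl/fl p2 replicate 2 was left out (adjusted p = 0.0849 to 0.275).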

How the results depend on the processing

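Each of the 69 genes kept its direction in every alternative that gave it a value, but calls depended on the fit. The count at passage 2 was 1 without the replicate block, 7 with it as a random effect, 334 and 28 in fits to only the 6 arrays compared with and without the block, 15 without the filter, 139 with trend and robust moderation and 318 with array weights. It stayed within 1.5 times of 69 with equal array medians, quantile normalization, the higher filter, the mean of a gene's rows and all rows. Leaving out 1 array gave 0 to 103 calls, and leaving out a replicate number in all groups 0 to 2. At passage 10, where 221 genes passed, the counts were 38 without the block, 124 with a random block, 15 and 3 for only the arrays compared, 116 without the filter, 411 with trend and robust moderation and 420 with weights, with 2 to 253 when arrays or numbers were left out. For the change between passages, where 1 gene passed, 0 passed without the block, with a random block, without the filter, with weights or with all rows, and 0 to 1 when arrays or numbers were left out. No gene kept its call in all 6 fits that left out a passage 2 array; Slc6a4 and Tpbgl did so in 3 of 6. The median difference of all genes moved by less than 0.1 in every alternative. With 3 arrays per group, small differences were not detectable.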

Other observations

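Some of the 69 genes share a family, and the families below were chosen after their values were seen. Hs2st1 (-0.49 ± 0.08, adjusted p = 0.0418) and Hs6st1 (-0.60 ± 0.10, 0.0487), which add sulfate to heparan sulfate chains, both fell, and neither passed without the block (0.136 and 0.18). Of the 14 tested genes of heparan sulfate synthesis 12 had negative differences, with a median of -0.29 where all genes had -0.003, and in 8 of the 14 all Tet2-/- arrays lay below all controls (8.17% of all genes). Hs6st2 gave -0.94 (adjusted p = 0.126) and Extl3 -0.55 (0.137), and neither passed.

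Creb3l1 (-0.82 ± 0.13, adjusted p = 0.0418) and Creb3l2 (-0.58 ± 0.10, 0.0427), membrane-bound transcription factors of the secretory pathway, fell, and neither passed without the block (0.166 and 0.134). Creb3 and Creb3l3 differed by -0.19 and -0.02 and did not pass. In the Nr4a family the third member, Nr4a2, gave 7.04, 7.04 and 7.30 against 6.59, 6.89 and 6.94, which lay apart but did not pass (-0.32 ± 0.10, adjusted p = 0.187).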
